A study of Mus musculus with 36 samples.

Results

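In mouse pancreas, 10 genes of the Notch pathway were examined: the receptors Notch1, Notch2, Notch3 and Notch4, the ligands Dll1, Dll4, Jag1 and Jag2, and the target genes Hes1 and Hey1. They were chosen by name, and they are 10 of the 22392 genes of the mm10 annotation that have an Entrez identifier. At each gene the presence and the width of peaks for K4me3 and K27me3 were read within 3 kb of any annotated transcription start site (TSS), mouse by mouse. In ChIP-Seq, chromatin fragments carrying a given histone mark are pulled down by an antibody and sequenced, and a peak is a region with an excess of such reads over background. K4me3 marks the starts of genes that are active or ready to be active, and K27me3, laid down by the methyltransferase EZH2, marks genes held silent. A start that carries both is often called primed.

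Both marks were profiled in whole pancreas of 12 mice, 22 days after tamoxifen given by oral gavage. All were adult mice of 2 to 4 months. Control tissue (WT, labelled Wildtype, 3 mice) came from C57BL/6 mice or from mice with the Mist1creERT allele alone. Ezh2ΔSET tissue (EZ, Mist1creERT/+EZH2[delta]SET, 3 mice) lost the SET domain of Ezh2, the part that methylates histones. The other 6 mice were of a background that is not described here, 3 of them with the same Ezh2 deletion and 3 without it, and their widths are given as ranges over all 6. Mist1creERT is an inducible Cre recombinase of acinar cells, the enzyme-producing cells of the pancreas, so the deletion was directed to these and not to duct, islet, vascular or immune cells. The material was whole tissue, in which a mark that is on fewer cells and a weaker mark on all cells cannot be told apart. A peak shows neither transcription nor Notch activity. The sex of each mouse was not given in the labels. The deposited lists give peak positions only, with no height and no read count, so the depth of each library is unknown.

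Notch receptors are bound by ligands of the Delta-like and Jagged families on a neighbouring cell. Binding exposes the receptor to proteases that free its intracellular part, which enters the nucleus and joins the DNA-binding protein RBPJ to switch on targets such as Hes1 and Hey1, both of them repressors of transcription. In the adult pancreas, Notch activity is low in acinar cells, and the pathway is known for its role when acinar cells take on duct features. Dll4 and Notch4 are best known from blood vessel cells, and Notch3 from the mural cells around them.

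Promoter sequences of 300 bases around a start, from 250 bases before to 50 after it, were taken from RefSeq on GRCm38.p6, the assembly also called mm10. They were found for 8 of the 10 genes, and not for Hes1 and Hey1. The 5 printed are those on which the K4me3 results turn. The Jag2 (chr12:112929446-112929745, minus strand) and Notch2 (chr3:98013288-98013587, plus strand) promoters are both rich in CG but differ in K4me3. Notch4 (chr17:34564045-34564344, plus strand) is poor in CG. Notch3 (chr17:32166841-32167140, minus strand) has K4me3 in only some of the mice, and Dll4 (chr2:119325534-119325833, plus strand) carries K27me3 in 1 mouse. Capitals mark each CG.
Jag2: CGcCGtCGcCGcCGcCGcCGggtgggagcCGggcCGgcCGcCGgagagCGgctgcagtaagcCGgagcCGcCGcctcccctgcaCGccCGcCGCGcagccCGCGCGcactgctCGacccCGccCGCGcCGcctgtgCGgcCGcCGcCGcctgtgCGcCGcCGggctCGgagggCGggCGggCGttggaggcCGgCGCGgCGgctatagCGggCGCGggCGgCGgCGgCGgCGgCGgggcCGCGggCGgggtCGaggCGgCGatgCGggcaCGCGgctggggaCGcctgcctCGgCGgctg
Notch2: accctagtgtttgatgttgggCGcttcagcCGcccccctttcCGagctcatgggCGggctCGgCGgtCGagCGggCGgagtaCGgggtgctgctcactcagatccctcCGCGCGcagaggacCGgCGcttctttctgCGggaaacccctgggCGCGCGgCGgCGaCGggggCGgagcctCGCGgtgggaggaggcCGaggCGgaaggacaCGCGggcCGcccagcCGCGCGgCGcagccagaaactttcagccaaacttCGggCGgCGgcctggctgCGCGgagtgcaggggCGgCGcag
Notch4: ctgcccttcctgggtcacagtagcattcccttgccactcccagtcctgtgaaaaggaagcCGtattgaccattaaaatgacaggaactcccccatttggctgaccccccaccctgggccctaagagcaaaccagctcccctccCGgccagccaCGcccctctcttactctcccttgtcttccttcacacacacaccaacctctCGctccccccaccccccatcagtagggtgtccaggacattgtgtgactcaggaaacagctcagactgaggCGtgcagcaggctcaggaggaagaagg
Notch3: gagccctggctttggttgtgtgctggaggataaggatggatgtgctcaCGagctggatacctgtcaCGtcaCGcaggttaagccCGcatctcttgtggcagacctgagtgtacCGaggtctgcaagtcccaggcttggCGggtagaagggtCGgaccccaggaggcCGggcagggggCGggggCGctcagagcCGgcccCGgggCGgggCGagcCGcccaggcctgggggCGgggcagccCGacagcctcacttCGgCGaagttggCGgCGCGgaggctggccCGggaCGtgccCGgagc
Dll4: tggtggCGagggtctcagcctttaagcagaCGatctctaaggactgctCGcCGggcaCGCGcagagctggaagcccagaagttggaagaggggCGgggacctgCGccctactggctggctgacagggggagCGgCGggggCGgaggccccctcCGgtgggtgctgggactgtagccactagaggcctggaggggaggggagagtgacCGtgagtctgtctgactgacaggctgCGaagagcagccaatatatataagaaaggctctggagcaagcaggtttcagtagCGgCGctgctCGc

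All 7 acinar markers had a K4me3 peak in all 12 mice, as did 56% of all genes. They include Ptf1a and Bhlha15, which encode acinar transcription factors. In control replicate 2, 4 of the 7 also had a K27me3 peak, where 24.4% of all genes did, and in each other mouse 0 or 1. For K4me3, markers of other cells were mixed. Of the 6 endothelial markers, Kdr had K4me3 in all 12 mice, Tek in 7, Pecam1 in 3 and Erg in 1, and Cdh5 and Tie1 were at 0. Of the 5 stellate and mural markers, Col1a1 had it in 12 mice, Pdgfrb in 4 and Acta2 in 2, and Des and Rgs5 were at 0. Of the 6 endocrine markers, Pax6 had it in 12 mice and Neurod1 in 11, and Ins1, Ins2, Gcg and Chga were at 0. Of the 3 markers of other tissues, Alb had it in 3 mice, and Myh6 and Neurod6 were at 0. Of the 5 leukocyte markers, 4 had K4me3 in control replicate 2 and 4 in 1 of the 6 mice of the other background, against 0 or 1 in the remaining 10 mice. All 5 duct markers had it in every mouse but control replicate 2, which had 3. The part of these differences in the results was not tested. Control replicate 2 stood apart in both marks. It had the fewest K4me3 peaks, 17400 against 21815 to 26081 in the other mice, and 11.7% of its autosomal K27me3 peaks overlapped a K4me3 peak of the same mouse, against 0.693% to 4.39% elsewhere. The deletion removes exons inside Ezh2, so that promoter peaks do not check it. K27me3 peaks on chromosome X numbered 17 in Ezh2ΔSET replicate 2, against 5637 to 7367 in the other control and Ezh2ΔSET mice. In the other background they numbered 10 to 35 in the 3 mice without the deletion and 5862 to 7272 in the 3 with it, so that there this split and the deletion cannot be told apart. The 10 genes are on autosomes, where Ezh2ΔSET replicate 2 also had more K27me3 peaks, 28783 against 23708 and 23052 in replicates 1 and 3, and the part of this split in the results was not tested.

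None of the Notch genes had K27me3 in more than 1 of the 12 mice. In 11 of the 12 mice, including all 6 with the Ezh2 deletion, 0 of the 10 genes had a K27me3 peak within 3 kb of a start. Over all genes, 10.5% to 15.6% had one in these 11 mice, so that 0 of 10 in a mouse is near the background. Control replicate 2 was the only exception, with K27me3 at 4 of the 10 genes, the ligands Dll1, Dll4 and Jag1 and the target Hey1. Its share over all genes was 24.4%. Across all mice, 64.7% of the 22392 genes had no K27me3 peak in any of them, and 6 of these 10 had none, which is also near the background.

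**Figure D1:**
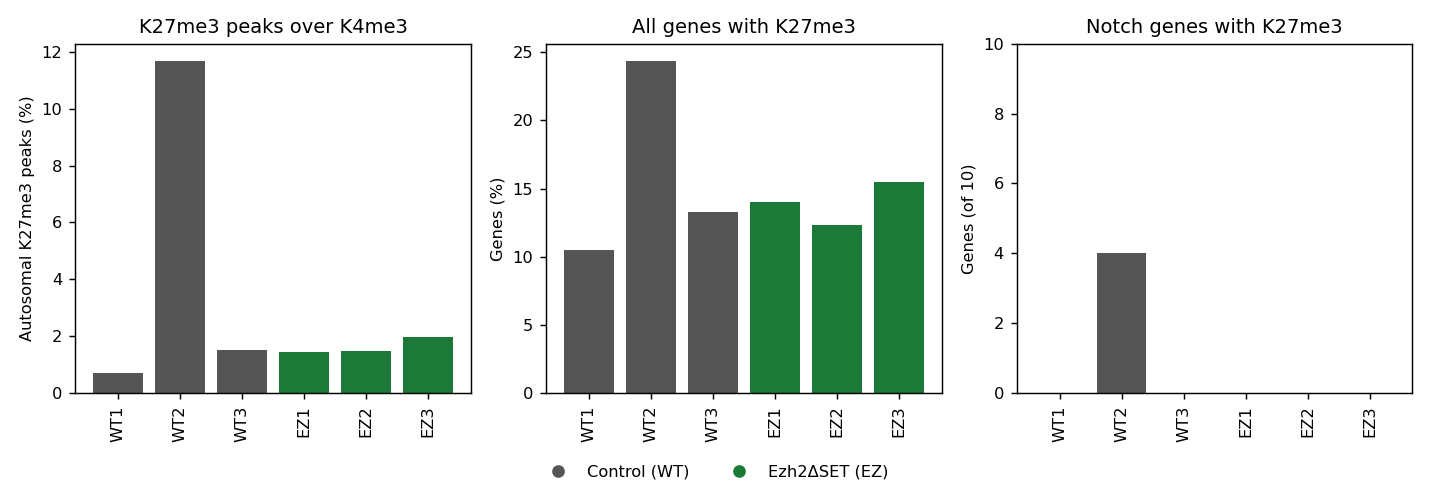
K27me3 in the control (WT) and Ezh2ΔSET (EZ) mice, with bars coloured by genotype: the share of autosomal K27me3 peaks that overlap a K4me3 peak of the same mouse (left, %), the share of the 22392 genes with a K27me3 peak within 3 kb of a start (middle, %) and the number of the 10 Notch genes with one (right). Control replicate 2 (WT2) is the highest bar in all 3 panels, with 11.7%, 24.4% and 4 genes, and the other 5 mice have 0 of the 10 genes.

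The 4 K27me3 peaks of control replicate 2 differed widely in size. At Dll1, a Delta-like ligand on chromosome 17, the peak ran from 15375827 to 15396318 and was 20492 bp wide. It began inside the gene, covered both protein-coding starts and extended upstream over a start of the neighbouring gene Fam120b, which was named after its values were seen. At Hey1, on chromosome 3, it ran from 8651294 to 8666654, with 15361 bp that covered most of the gene body and 1 of the 4 starts that lay under the K4me3 peak. At Dll4, on chromosome 2, the 9367 bp from 119319860 to 119329226 covered 2 starts. The Jag1 peak, from 137115981 to 137120981 on chromosome 2, was 5001 bp wide, which is the smallest width that any K27me3 peak has in these lists.

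Each of these K27me3 peaks overlapped K4me3 of the same mouse. At Dll4 the whole 2213 bp K4me3 peak lay inside the K27me3 peak. The overlap was 1859 bp at Jag1, 1487 bp at Hey1 and, over all K4me3 peaks under the wide Dll1 peak, 3372 bp. These 4 genes share their calls, K27me3 in control replicate 2 and in no other mouse, with 1797 genes in all, or 8.03% of all genes, whereas any other mouse held 13 to 95 genes alone. Of the 1797 genes, 74% had K4me3 in control replicate 2, against 59.5% of all genes. Since 1 control mouse carries all the calls, the effect of the Ezh2 deletion over the 12 mice had an exact two-sided permutation p of 1 for each of the 4 genes. Over all 7899 genes with K27me3 in at least 1 mouse, 4.58% had an unadjusted p of at most 0.05 for this effect. Left without control replicate 2, none of the 10 genes had a K27me3 peak to test.

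Away from the starts, the distance to the nearest K27me3 peak differed between the genes. Jag2 was the steadiest, with 410 to 414 kb in the 12 mice. Notch1 (147 to 162 kb) and Notch3 (283 to 448 kb) were also far from any peak. Hes1 had its nearest peak at 213 kb in control replicate 2, at 497 kb in Ezh2ΔSET replicate 1 and at 696 to 699 kb in the other control and Ezh2ΔSET mice, with 214 to 708 kb in the 6 mice of the other background.

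Notch2 and Notch4 had K27me3 closer by. For Notch2 the distance was 506, 118 and 32.9 kb in the control mice and 10.5, 33 and 9.45 kb in Ezh2ΔSET replicates 1 to 3, and it was 16.4 to 356 kb in the other 6 mice. The control and Ezh2ΔSET values overlapped. For Notch4 it was 34.7 to 36.9 kb in 9 of the 12 mice and 125 to 126 kb in the remaining 3, among them control replicate 3 and Ezh2ΔSET replicate 2, so both genotypes held both kinds of mouse. Outside control replicate 2, the nearest K27me3 peak lay 157 to 600 kb from Dll1, 185 to 1580 kb from Dll4, 276 to 343 kb from Jag1 and 41.6 to 133 kb from Hey1.

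The study itself used a wider window for K27me3, which reached 100 kb upstream and 3 kb downstream of a TSS. In that window Notch4 had K27me3 in 9 of the 12 mice. Its width there was 5001 bp in control replicate 1, 48465 bp in control replicate 2, 8046 bp in Ezh2ΔSET replicate 1 and 7895 bp in Ezh2ΔSET replicate 3. Notch2 had it in 4 mice, among them Ezh2ΔSET replicates 1 (7177 bp) and 3 (11464 bp). The calls at Dll1, Dll4, Jag1 and Hey1 were still those of control replicate 2 alone. Notch1, Notch3, Jag2 and Hes1 had none in any mouse in either window.

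**Figure D2:**
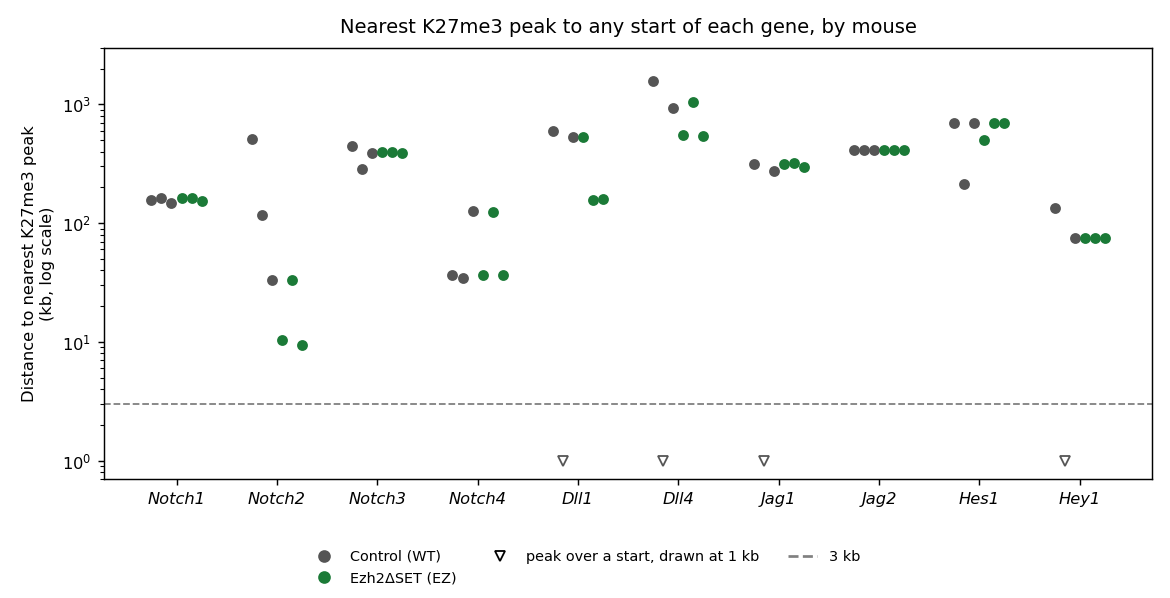
Distance in kb, on a log scale, from any start of each gene to the nearest K27me3 peak, with 1 point per control (WT) or Ezh2ΔSET (EZ) mouse, coloured by genotype. Open triangles, drawn at 1 kb, are the 4 genes of control replicate 2 with a peak over a start, and all other points lie above the dashed line at 3 kb, the lowest at 9.45 kb for Notch2.

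K4me3 was present at 9 of the 10 genes in every mouse but 1. Notch1, Notch2, Notch4, Dll1, Dll4, Jag1, Hes1 and Hey1 had it in all 12 mice, a pattern shared with 12535 genes, or 56% of all. Notch3 had it in 11, and Jag2 in none. The Notch3 call depended on the settings, with 2 mice when all libraries were cut to equal numbers of peaks, 0 when an overlap or a width of at least 1 kb was asked for, and 12 with a 5 kb window. In control replicate 2 that window added only a separate peak inside the gene, of 1014 bp, and no peak at the start. In all 3 mice of a genotype, K4me3 was called at 8 genes in control tissue, where 57% of all genes had it, and at 9 in Ezh2ΔSET tissue, where 60% did, and each of the other 6 mice had 9. The missing gene was Notch3 in control replicate 2, and without that mouse control tissue had 9. Both marks together were called at 0 genes in all 3 control or all 3 Ezh2ΔSET mice, and over all genes at 1.21% and 1.64%, so that 0 of 10 is near the background.

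The K4me3 widths differed widely between the genes. Hes1, whose product represses genes of differentiation, had the widest marking, with a median of 8405.5 bp over the 12 mice. It was wider than Notch1, the next gene, in all 12. Only 0.578% of the peaks of a library were as wide as that of Hes1 (median over mice). Notch1 (4747.5 bp) and Jag1 (4568.5 bp) came next and could not be ordered, since Notch1 was wider in 7 of the 12 mice. Hey1, Dll1, Dll4, Notch4 and Notch2 followed with medians of 3051, 2743, 2596.5, 2104 and 2004.5 bp. Each was wider than the next of these in 8 or 9 of the 12 mice, so neighbours in this order overlapped. Notch3 had the narrowest marking, with a median of 755 bp, and 78.7% of the peaks of a library were at least as wide as its own. The order depended on the width measure. With peaks within 3 kb merged, Notch3 was wider than Notch2 in all mice but control replicates 1 and 2. Notch1 was then wider than Hes1 in Ezh2ΔSET replicate 3.

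Among the receptors, Notch1 encodes the receptor of many tissues. Its K4me3 width was 4919, 3558 and 5106 bp in the control mice and 4733, 4634 and 5209 bp in the Ezh2ΔSET mice, replicates 1 to 3, and 4040 to 5096 bp in the other 6 mice. The genotypes overlapped, and control replicate 2 had the lowest value. The peak covered 2 starts of Notch1, 12839 and 12841 bp downstream of the most upstream annotated start, and ran in control replicate 1 from 26499750 to 26504668 on chromosome 2. No K4me3 peak lay within 3 kb of that most upstream start in any mouse.

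Notch2 did not separate the genotypes. Its K4me3 width was 1900, 2559 and 1995 bp in control and 1992, 2984 and 1956 bp in Ezh2ΔSET tissue, and 1629 to 2693 bp in the other 6 mice. In each mouse a single peak covered 2 starts.

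Notch3 had a narrow peak that was 647, 0 and 752 bp wide in control and 900, 501 and 736 bp in Ezh2ΔSET tissue, and 632 to 887 bp in the other 6 mice. The values of the genotypes overlapped. The smallest peak these lists hold for K4me3 is 501 bp, so that Notch3 was near the limit of detection, and a width of 0 in control replicate 2 does not show that the mark was absent. The peak reached the 300-base promoter shown above in 7 of the 12 mice. A further K4me3 peak of 1014 to 1323 bp lay inside the gene, from 3589 to 3728 bp (near edge) to 4741 to 4932 bp (far edge) downstream of the start, in all 12 mice, control replicate 2 included. It was wider than the peak at the start in each of them.

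Notch4 had its K4me3 at the far end of the gene and not at the start that makes the protein. The widths were 1916, 6526 and 2052 bp in control and 2089, 2212 and 2088 bp in Ezh2ΔSET tissue, and 1895 to 7286 bp in the other 6 mice. Control replicate 2 stood far above the rest of these 2 genotypes, and in it and in 1 of the other 6 mice the peak was joined with that over the starts of Gpsm3 and Pbx2, which lie next to Notch4 and were named after their values were seen. Of the annotated Notch4 starts, the peak covered the same 2 in all 12 mice, 22677 and 22773 bp downstream of the protein-coding start, and neither belongs to a transcript annotated as protein-coding. Without control replicate 2, the Ezh2ΔSET mice lay above the other control mice by 145.7 bp (exact permutation p = 0.1), whereas with it the genotypes overlapped. No K4me3 peak lay within 10 kb of the protein-coding start in any mouse, and the Notch4 promoter shown above had neither mark in any.

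**Figure D3:**
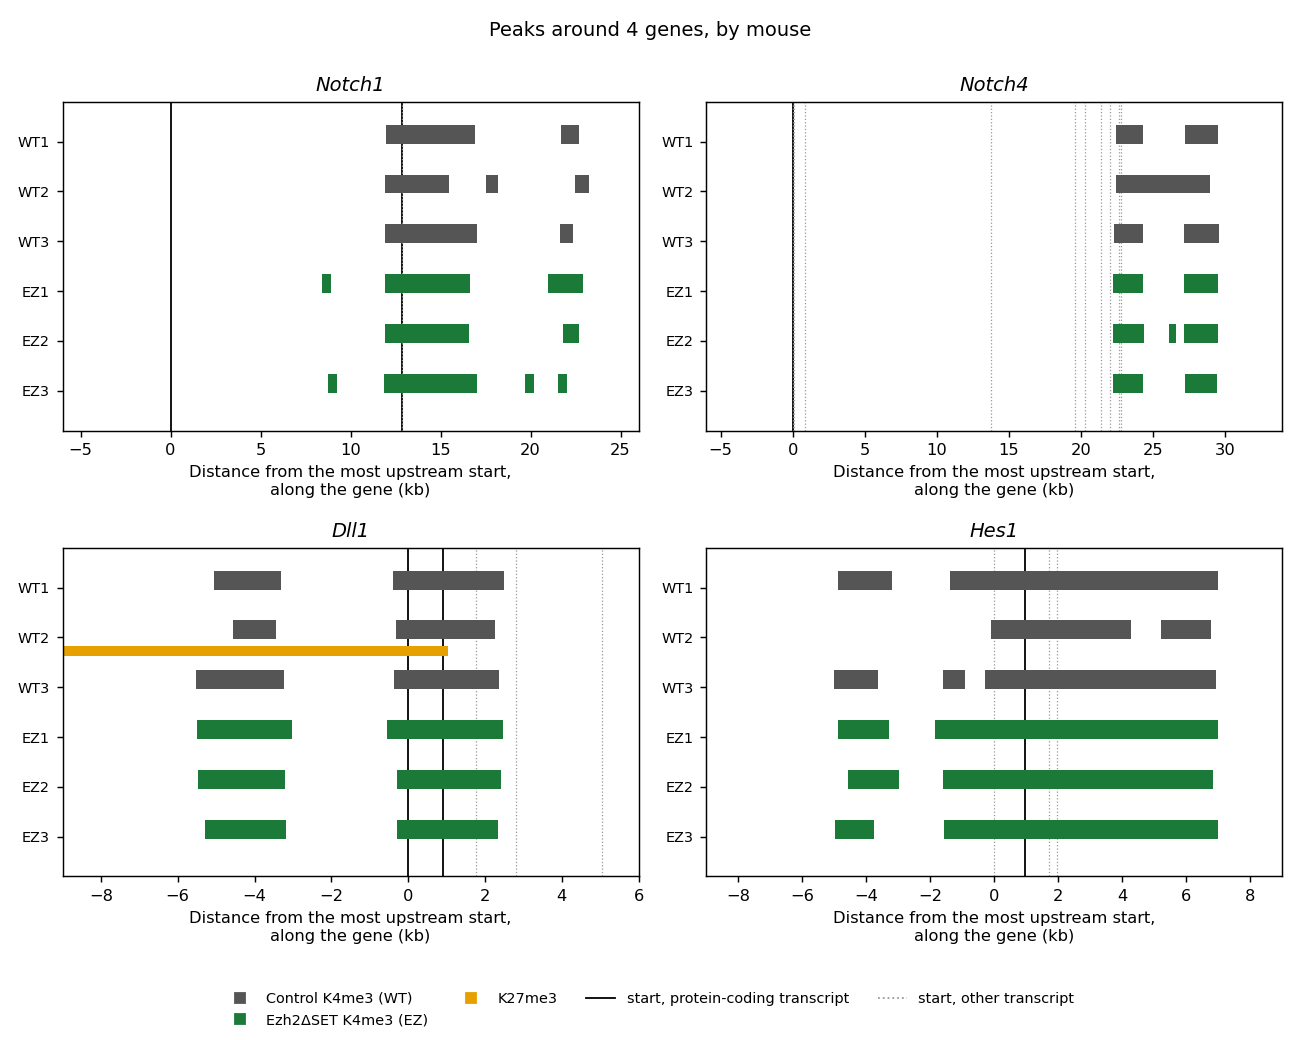
Peaks of each control (WT) and Ezh2ΔSET (EZ) mouse around Notch1, Notch4, Dll1 and Hes1, by distance in kb from the most upstream start along the gene. Thick bars are K4me3 coloured by genotype, the thin bar is the K27me3 peak of control replicate 2 at Dll1, and vertical lines are annotated starts. K4me3 lies over the second protein-coding start of Notch1, near the end of Notch4, over both protein-coding starts and a stretch further upstream at Dll1, and across about the whole of Hes1.

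Among the ligands, Dll1 had a K4me3 peak over its starts in every mouse. The summed width was 2876, 2567 and 2732 bp in control and 3027, 2713 and 2630 bp in Ezh2ΔSET tissue, which overlapped, and 2686 to 5336 bp in the other 6 mice. The highest values depended on the edge of the window. A second peak of 1143 to 2622 bp lay upstream of Dll1 in all 12 mice, and its near edge was 3025 to 3432 bp from the start in 10 of them, all control and Ezh2ΔSET mice included. In the remaining 2 it came within 3 kb, and its width was counted.

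Dll4, the ligand best known from growing blood vessels, had a K4me3 width of 2393, 2213 and 2393 bp in control tissue. In Ezh2ΔSET it was 3664, 2919 and 2885 bp, and in the other 6 mice 2369 to 2948 bp. All Ezh2ΔSET mice lay above all control mice. The difference was 823.0 bp (means of 3156.0 and 2333.0 bp, SD 440 and 104, n = 3 mice each, two-sided exact permutation p = 0.1, below which a test of 3 mice against 3 cannot go, and 0.873 after Benjamini-Hochberg adjustment over all genes). Without control replicate 2 it was 763.0 bp and with peaks within 3 kb merged 1446.3 bp, both without overlap. Of the 14786 genes with K4me3 in at least 1 mouse, 9.43% were wider in Ezh2ΔSET than in control tissue without overlap. In Ezh2ΔSET replicate 1, 637 bp of the width belonged to a second peak upstream. Merging changed only that mouse among control and Ezh2ΔSET mice, to 5534 bp, since it joined these peaks across the gap. With the widest peak alone it had 3027 bp, and the difference was smaller than 823.0 bp, still without overlap.

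Jag1 was the steadiest of the 9 genes with K4me3. Its widths were 4566, 4239 and 4534 bp in control and 4584, 4698 and 4525 bp in Ezh2ΔSET tissue, and 4483 to 4644 bp in the other 6 mice. The SD over the 12 mice was 2.5% of the mean, against 8.05% to 64.5% for the other 8 genes (for Notch3 over the 11 mice with a peak). Control and Ezh2ΔSET values overlapped, and the lowest of all was control replicate 2.

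Jag2 had neither mark in any mouse. It shared the absence of K4me3 with 7606 genes, or 34% of all, and 16.4% had neither mark in any mouse. The nearest K4me3 peak lay 11.3 to 11.6 kb from a start in the 12 mice. Its promoter, shown above, is the richest in CG of the 9 promoters of these genes, with 63 CG in 300 bases and a GC content of 86%. Its ratio of observed to expected CG was 1.14, against 1.04 at Notch2, whose promoter had K4me3 in all 12 mice. Of the 361 promoters with a ratio of 1.14 or more, 84.2% had K4me3 in all 12 mice and 7.2% had it in none. Notch4, at a ratio of 0.214, lay at the other end, where 91.6% of the 9957 promoters with this ratio or a lower one had K4me3 in no mouse.

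**Figure D4:**
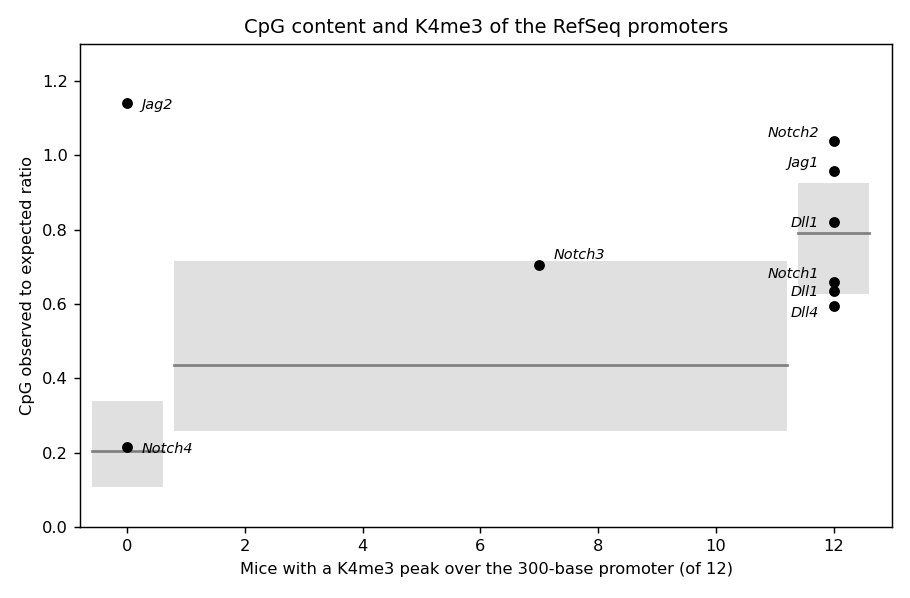
Ratio of observed to expected CG in the 300-base promoter against the number of mice, of 12, with a K4me3 peak over it, for the 9 promoters of 8 Notch genes (Dll1 has 2). Gray boxes span the middle 50% of all 32609 promoters with K4me3 in 0, in 1 to 11 and in 12 mice, with the median as a line (0.204, 0.435 and 0.791). Jag2, at 1.14 and 0 mice, lies above the box of its class, and Notch4, at 0.214 and 0 mice, lies near its median.

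The RBPJ motif GTGGGAA, searched on both strands as GTGGGAA or TTCCCAC, was in 0 of the 9 promoters, against 6.38% of all 32609. The promoters of Hes1 and Hey1 were not among them.

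Of the targets, Hes1 carried a K4me3 peak that spanned the whole gene in all 12 mice. The summed width was 8393, 4373 and 7882 bp in control and 8849, 10021 and 8561 bp in Ezh2ΔSET tissue, and 5895 to 8723 bp in the other 6 mice. Control replicate 2 had the lowest value of the 12. In Ezh2ΔSET replicate 2, 1579 bp of the width belonged to a separate upstream peak whose edge came just within 3 kb. Control replicates 1 and 3 and Ezh2ΔSET replicates 1 and 3 also had an upstream peak, but beyond 3 kb, so it was not counted. With the widest peak alone, Ezh2ΔSET replicate 2 had 8442 bp, and the difference given next was smaller, still without overlap. All Ezh2ΔSET mice were above all control mice, by 2261.0 bp (means of 9143.7 and 6882.7 bp, SD 773 and 2190, n = 3 mice each, exact permutation test, two-sided, p = 0.1, adjusted p = 0.873). Of all genes tested, 9.43% were wider in Ezh2ΔSET without overlap. The Hes1 difference was 1006.2 bp without control replicate 2 (exact permutation p = 0.2), again without overlap. For the bases covered within the window it was 1090.7 bp, and 507.2 bp without that mouse. The genotypes overlapped with peaks within 3 kb merged (1512.7 bp, exact permutation p = 0.6) and with a 5 kb window (1647.3 bp, exact permutation p = 0.3).

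The Hes1 marking was divided into peaks differently between mice. From 2 kb upstream to 7 kb downstream of the most upstream start, 8 of the 12 mice had a single peak, among them control replicate 1 and all Ezh2ΔSET mice, and control replicates 2 and 3 had more than 1. Bases covered by K4me3 in this stretch, a measure added after seeing the data, were 8393, 5953 and 7882 in control and 8849, 8442 and 8561 in Ezh2ΔSET tissue, and 7578 to 8723 in the other 6 mice. The difference of Ezh2ΔSET from control tissue was then 1208.0 bp, and 479.8 bp without control replicate 2 (exact permutation p = 0.1 for both).

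Hey1 had a peak over 4 starts in every mouse and a second, narrower one towards the end of the gene in 11 of the 12, all control and Ezh2ΔSET mice included. The summed width was 3036, 3280 and 3035 bp in control and 3298, 2954 and 3241 bp in Ezh2ΔSET tissue, and 2487 to 3184 bp in the other 6 mice. The genotypes overlapped.

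**Figure D5:**
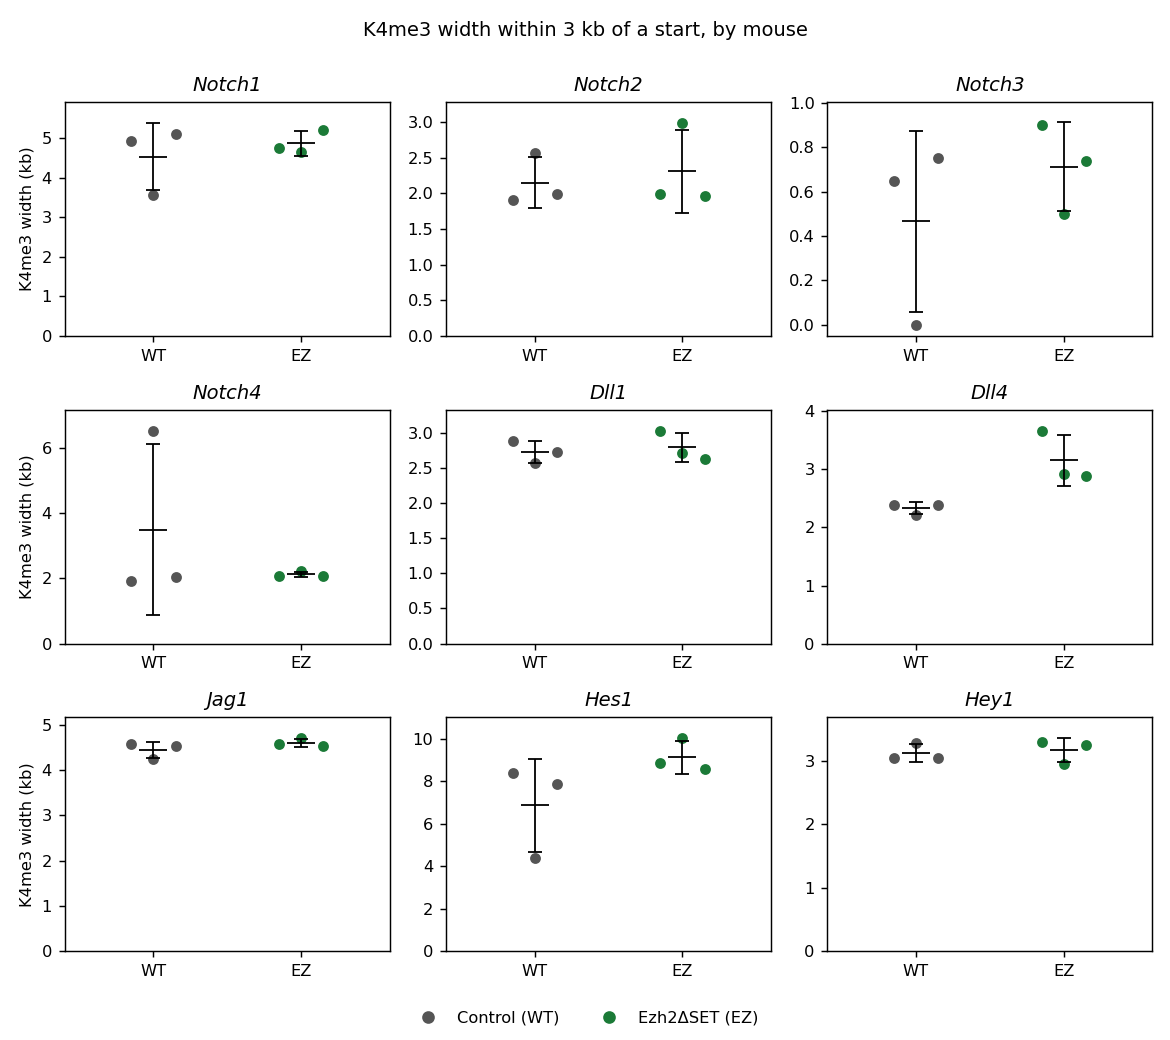
Summed width in kb of the K4me3 peaks within 3 kb of a start, for the 9 genes with K4me3, in control (WT) and Ezh2ΔSET (EZ) tissue. Points are mice, replicates 1 to 3 from left to right, and bars are the mean with the SD (n = 3). The genotypes do not overlap at Dll4 and Hes1, and control replicate 2 lacks the Notch3 peak and is the high value of Notch4.

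The Ezh2 deletion was also tested over all 12 mice, 6 with and 6 without it, with labels exchanged only among mice of the same background (400 arrangements, smallest p 0.005). None of the 9 genes with K4me3 had an unadjusted p of at most 0.05. Over all 14786 genes 7.82% did, and after adjustment over all of them no gene passed, with a smallest adjusted p of 0.483. The smallest p among the Notch genes was 0.145, at Dll4, with a mean difference of 353.3 bp over both backgrounds (exact permutation test). This joins opposite directions, 823.0 bp between Ezh2ΔSET and control tissue and -116.3 bp in the other background (exact permutation test of the difference between backgrounds, p = 0.03, adjusted p = 0.228 over 13 such tests). At Hes1 the mean difference was 648.3 bp (exact permutation p = 0.555), from 2261.0 and -964.3 bp (exact permutation p = 0.035 for their difference, adjusted p = 0.228), and it was 20.9 bp without control replicate 2. Without control replicate 2 the smallest was 0.125, at Dll1 (exact permutation test, -885.7 bp). A p of this size does not show that the widths were equal.

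The rest of the pathway, 46 genes from the ligand-modifying enzymes to further targets, is given by counts. K4me3 was present in all 12 mice at 41 of them and in none at 2, against 56% and 34% of all genes. K27me3 was absent in all mice at 37, against 64.7% of all genes. In control replicate 2 it was called at 9, where 24.4% of all genes had it, and in the other mice at 0 to 4. Dlk1 and Hey2 had K27me3 in more mice than any other of the 46. Dlk1, which encodes a Notch ligand-like protein and had no K4me3, had K27me3 in 6 mice, with 18680 bp in control replicate 2, none in the other control or Ezh2ΔSET mice and up to 7171 bp in the other 6. Hey2, a relative of Hey1, had it in 7 mice, with 42610 bp in control replicate 2, 7708 and 7542 bp in Ezh2ΔSET replicates 2 and 3 and up to 11675 bp in the other 6, and it had K4me3 in all 12. For the effect of the deletion on K27me3 width, the exact permutation p was 0.3 at Dlk1 and 0.985 at Hey2.

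For K4me3, 44 of the 46 genes could be tested. Between control and Ezh2ΔSET tissue, 7 were wider in Ezh2ΔSET without overlap and 0 narrower, where 9.43% of all genes were wider. For the deletion over the 12 mice, 4 were wider and 0 narrower at an unadjusted p of at most 0.05, where 7.82% of all genes were called in either direction. None passed adjustment over all genes (adjusted p of 0.517 to 0.639).

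Hey2 was wider with the deletion by 561.5 bp (exact permutation p = 0.01). Its K4me3 width was 2705, 2177 and 2631 bp in control and 3120, 3169 and 3310 bp in Ezh2ΔSET tissue, without overlap, and 2571 to 3423 bp in the other 6 mice. The other 3 were Pofut1, which adds fucose to Notch, Adam10, the main protease for the first cut of the receptor, and Heyl, another target, with differences of 667.5, 764.0 and 1841.5 bp (exact permutation p = 0.05, 0.04 and 0.05). Without control replicate 2 these 3 differences were 319.9, 444.5 and 1272.7 bp, with exact permutation p of 0.12, 0.085 and 0.08, while Hey2 stayed at 479.7 bp (exact permutation p = 0.01). With mice of the same number taken as pairs, Adam10 and Heyl had exact permutation p of 0.0938 and 0.0625. Pofut1 and Hey2 each had 0.0312 in that test.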

How the data were processed

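Whole pancreas of 12 mice was profiled for K4me3 and K27me3, which gave 24 peak lists. Inputs were not analysed here. Per the study's methods and processing notes, the authors used FastQC for read quality and Bowtie2 for alignment to mm10. They called peaks sample by sample with HOMER (findPeaks, histone mode), comparing with local background and the matching input. Versions of these tools were not given in the sources used here. The deposited lists hold positions only, with the same score for every peak, so depth is unknown and no counting interval could be given. Neighbouring K27me3 peaks can overlap, and summed widths count such bases more than once. Peaks on the mitochondrial genome were not matched to genes.

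Starts were those of GENCODE vM21 (55450 genes, 22392 with an Entrez identifier). Width was the summed length of all peaks that overlapped 3 kb on either side of any start, and 0 where there was none. Genes with a peak in at least 1 of the 12 mice were tested, 14786 for K4me3 and 7899 for K27me3. Control and Ezh2ΔSET tissue were compared by an exact two-sided permutation test of the means, and a gene was called where the 3 values of each did not overlap. The effect of the Ezh2 deletion was tested over all 12 mice by exchanging labels within each background. Whether it differed between backgrounds was tested with the same exchanges. They assume no effect of the deletion in either background, so their p does not test equal effects as such. Other comparisons that need the background of the other 6 mice are not reported here. P-values were adjusted by Benjamini-Hochberg over all genes tested. They measure the spread between mice. The 10 genes, the pathway and marker lists, and the tests were chosen with earlier results of these data known. Other pathway genes are named only where K27me3 was present in all 3 mice of a group, where the deletion effect had an unadjusted p of at most 0.05, or as stated. Alternatives covered the window, the choice of starts, the overlap, peak numbers, minimum widths, the width measure, merging, the log scale, the replicate number and each mouse left out. Those added after seeing the data were a 5 kb window, K27me3 peaks of at least 10 kb, equal numbers of autosomal peaks and the covered bases at Hes1, with and without control replicate 2. Scripts were tested on simulated data. Python 3.11.15, numpy 2.4.6 and scipy 1.17.1 were used.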

Additional observations from a re-analysis of the deposited data

Results flagged for a closer look

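At Dll4 and Hes1 the Ezh2 deletion effect on K4me3 width was flagged for a difference between backgrounds, at unadjusted p of at most 0.05. The exact permutation test exchanged deletion labels within each background. At Dll4 the difference with the deletion was 823.0 bp between Ezh2ΔSET and control tissue and -116.3 bp in the other background, which differ by 939.3 bp (exact permutation p = 0.03). At Hes1 the values were 2261.0 and -964.3 bp, which differ by 3225.3 bp (exact permutation p = 0.035). These Hes1 values include the separate 1579 bp upstream peak of Ezh2ΔSET replicate 2. Neither passes correction over the 13 tests of this kind, 9 for K4me3 and 4 for K27me3 (smallest adjusted exact permutation p = 0.228). Leaving out each mouse gave 685.3 to 1120.8 bp at Dll4 and 1970.5 to 3980.5 bp at Hes1, and the p rose above 0.05 for 7 and 8 of the 12 mice. One of these is control replicate 2, without which the values were 879.3 and 1970.5 bp (exact permutation p = 0.07 and 0.065). With the bases covered at Hes1 from 2 kb upstream to 7 kb downstream, the difference was 1611.3 bp (exact permutation p = 0.05).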

How the results depend on the processing

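With control replicate 2 as the only mouse with K27me3 at these genes within 3 kb of a start, no alternative gave K27me3, or both marks, in all 3 control or all 3 Ezh2ΔSET mice. K4me3 in all 3 mice was called at 6 genes in control and 7 in Ezh2ΔSET tissue with the most upstream start only, and at 7 and 8 with protein-coding starts only. It was called at 8 in both with equal peak numbers (all or autosomal) and with an overlap or a K4me3 width of at least 1 kb, and at 9 in both with a 5 kb window or with 2 of 3 mice. The genes without overlap between Ezh2ΔSET and control tissue, 2 of 9 where 9.43% of all genes were wider, fell to 1 with peaks within 3 kb merged (9.66% of all genes) and with a 5 kb window (9.8%). In both, Hes1 lost its call, with differences of 1512.7 and 1647.3 bp (exact permutation p = 0.6 and 0.3). Leaving out each mouse gave 2 to 3 genes for this pair (12.6% of all genes without control replicate 2), 8 to 9 genes with K4me3 in every control mouse, and 0 to 1 for the deletion over the 12 mice, where the 1 gene was Jag1 (114.9 bp, exact permutation p = 0.045) without 1 mouse of the other background. The 3 kb K27me3 minimum removed nothing. For K4me3, mice of the same number correlated at 0.15, 0.20 and 0.07 between control and Ezh2ΔSET tissue and at 0.45, 0.24 and 0.28 between the mice with and without the deletion of the other background (for K27me3, 0.01 to 0.08 and 0.03 to 0.18). Over all 18 comparisons of same-numbered mice, the K4me3 values ran from -0.59 to 0.45. The numbers thus did not pair all mice, and whether they paired those of the other background cannot be told from these values. A replicate block gave 0 of the 10 genes for the deletion in either mark (smallest possible p 0.03125), and among the 4 named pathway genes Adam10 and Heyl had exact permutation p of 0.0938 and 0.0625 under it.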
